A study of Homo sapiens with 6 samples.

Results

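The genes described here are 10 markers used to place an ovarian cancer cell by lineage and by epithelial or mesenchymal state: PAX8, WT1, MUC16, FOLR1, EPCAM, CDH1, CDH2, VIM, KRT8 and KRT18. They were taken by Ensembl identifier from a table of 58336 genes and make up 10 of the 57754 genes that could be paired with a symbol. All 6 libraries came from A2780, an established human ovarian cancer cell line. In 3 libraries (DMSO replicates A, B and C) the cells had received the DMSO vehicle, and in the other 3 (TH-588 replicates A, B and C) they had received 6 µM TH-588, an inhibitor of the nucleotide pool enzyme MTH1, for 48 h. A single line was used, so the values describe A2780 and not ovarian cancer in general.

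PAX8 and WT1 are transcription factors of the Müllerian duct and of the serous and mesothelial lineages, and pathologists stain for them to assign a tumor to the ovary or tube. MUC16 (the CA125 antigen), FOLR1 (folate receptor alpha) and EPCAM are surface proteins of many ovarian carcinomas and are used as serum markers or drug targets. E-cadherin (CDH1) and the keratin pair KRT8 and KRT18 mark simple epithelia, whereas N-cadherin (CDH2) and vimentin (VIM) mark mesenchymal cells, and carcinoma cells can shift between these states.

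Sequencing depth ran from 77634048 to 99074175 counts in 5 libraries and was 28537837 counts in TH-588 replicate A. In that library the small nucleolar RNA SNORD3A took 21.94% of the counts, against 11.2% and 12.95% in TH-588 replicates B and C. With DMSO it took 7.68%, 10.59% and 9.88%, so its share was higher in every TH-588 library, also with replicate A left out. Each test below was also run without TH-588 replicate A. Levels are given as CPM, counts scaled to a common library size after TMM scaling, as mean ± SD over 3 libraries. Values of single libraries stand in the order A, B, C. The log2 difference is that fitted for TH-588 minus DMSO, with its standard error (SE). The level that 3 counts of a library total stand for, used as a detection floor, was 0.105 CPM in TH-588 replicate A and 0.0303 to 0.0386 CPM in the other libraries. Of the 10 markers, 5 had enough counts to be tested (FOLR1, EPCAM, CDH2, VIM and KRT18), and for the other 5 only counts and levels are given. FOLR1 entered the test only through its counts after TH-588.

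Of the 5 markers tested, EPCAM, KRT18 and FOLR1 were higher after TH-588, CDH2 was lower and VIM did not pass the test (edgeR's quasi-likelihood test, Benjamini-Hochberg adjusted p under 0.05 over 15844 genes). The background was high: 49.6% of all genes tested passed in one direction or the other, 24.2% as higher and 25.3% as lower. Rises made up 48.9% of all calls, and 60.4% with scaling by library size alone. With 3 rises and 1 fall, 5 genes are too few to read a share against that background, and the markers are described singly. An exact two-sided permutation test of 3 libraries against 3 cannot give a p under 0.1, so each adjusted p comes from the fit over all genes.

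**Figure D1:**
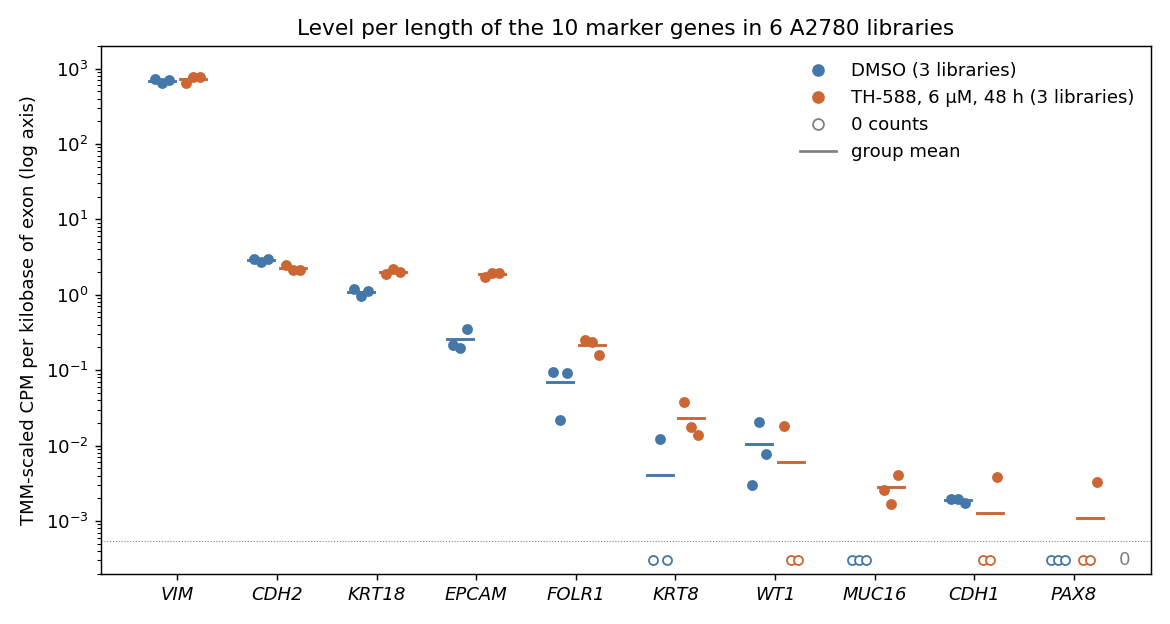
Level of each marker per kilobase of exon (TMM-scaled CPM per kilobase, log axis) in the 3 DMSO libraries (blue) and the 3 TH-588 libraries (orange). Points are libraries, bars are group means and open points below the dotted line are libraries with 0 counts. VIM stood between 645 and 785 in all 6 libraries, CDH2, KRT18 and EPCAM lay between 0.197 and 3.0, FOLR1 lay between 0.0221 and 0.249, and KRT8, WT1, MUC16, CDH1 and PAX8 lay below 0.04.

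Per kilobase of exon, the measure that allows levels of different genes to be set side by side, VIM was by far the highest marker. It stood at 695 ± 42 CPM per kilobase with DMSO (SD, n = 3) and was the 15th most abundant gene of the table by mean CPM. In DMSO libraries CDH2 followed at 2.9 ± 0.159, KRT18 at 1.11 ± 0.116, EPCAM at 0.255 ± 0.084 and FOLR1 at 0.0696 ± 0.0412 CPM per kilobase (SD, n = 3 each). None of these neighbors overlapped over the 3 libraries. Below FOLR1 came WT1 at 0.0105, KRT8 at 0.00411 and CDH1 at 0.00189 CPM per kilobase, where WT1 overlapped KRT8 and KRT8 overlapped CDH1, and PAX8 and MUC16 had no counts.

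With TH-588 the order of the 5 highest markers was the same, and CDH2, KRT18 and EPCAM drew closer together. VIM stood at 736 ± 78.5, CDH2 at 2.25 ± 0.217, KRT18 at 2.03 ± 0.135 and EPCAM at 1.88 ± 0.139 CPM per kilobase (SD, n = 3 each). CDH2 overlapped KRT18, and KRT18 overlapped EPCAM, so these neighbors did not differ beyond their spread. FOLR1 was next at 0.216 ± 0.0491 CPM per kilobase (SD, n = 3), and KRT8, WT1, MUC16, CDH1 and PAX8 followed at 0.0231 or less, each overlapping its neighbor. The ratio of CDH2 to EPCAM per length was 13.7, 13.8 and 8.53 with DMSO and 1.45, 1.08 and 1.08 with TH-588. The ratio of VIM to KRT18 per length was 606, 664 and 624 with DMSO and 339, 361 and 385 with TH-588, so that neither ratio overlapped between the groups. Both ratios were chosen after the levels were seen, and neither was tested.

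The lineage factors were at or near 0. PAX8 (ENSG00000125618, GRCh38 chr2:113215997-113278950, minus strand) had 0 counts in all 3 DMSO libraries and in TH-588 replicates A and B, and 2 counts in TH-588 replicate C. WT1 (ENSG00000184937, chr11:32387775-32435630, minus strand) had 1, 7 and 3 counts with DMSO and 2, 0 and 0 counts with TH-588. A few reads of WT1 were thus present in every DMSO library and in 1 of 3 TH-588 libraries, and the groups overlapped, since the 2 counts of the shallow TH-588 replicate A stood for 0.0747 CPM. Pooled over libraries, 2 counts of WT1 against 11 gave a ratio of 0.214 (95% exact interval 0.0231 to 0.983, counting error only), and without a filter on low counts its adjusted p from edgeR was 0.576. Exons of both genes overlap those of antisense genes, 9.26% of PAX8 bases with PAX8-AS1 and 2.75% of WT1 bases with WT1-AS, but neither antisense gene had any count. SOX17, another Müllerian transcription factor, also had 0 counts in all libraries.

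Checked against its label as an ovarian cancer line, A2780 had few or no counts of several defining markers, since PAX8, WT1 and CDH1 each had group means of 0.043 CPM or less. The KRT8 row was also low, at 0.159 CPM or less, but rows named as KRT8 pseudogenes held far more counts, so the level of KRT8 is uncertain. In a list of 25 Müllerian and ovarian cancer lineage genes, 6 had no count in any library and 5 could be tested. Of these 5, FOLR1, BCAM, MUC1 and CRABP2 rose and SPON1 did not pass the test, with a median log2 difference of 0.56. The median over all genes tested was 0.02, with 24.2% of them higher, but 4 of the 5 had a mean log2 CPM under 2, where the medians of all genes were 0.26 (from -1 to 2) and 0.37 (under -1). BCAM, a laminin receptor of the cell surface, rose from 12.1 ± 0.748 to 17.8 ± 1.88 CPM (SD, n = 3 each), or a log2 difference of 0.56 (SE 0.11, edgeR adjusted p = 0.00123). Without TH-588 replicate A, 2 genes of this list were past the threshold in place of 4. WFDC2, which encodes the serum marker HE4, was lower with TH-588, at 0.11 ± 0.076 CPM with DMSO and 0.0181 ± 0.018 CPM with TH-588 (SD, n = 3 each). Its groups did not overlap (0.0485 to 0.195 CPM with DMSO, 0 to 0.0359 CPM with TH-588). It had 33 counts in all and was not tested.

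The 3 surface antigens had higher levels after TH-588, each from a low base. MUC16 (ENSG00000181143, chr19:8848844-8981342, minus strand) encodes the very large mucin that carries CA125. It had 0 counts in all 3 DMSO libraries and 3, 8 and 15 counts in TH-588 replicates A, B and C, or 0.112, 0.0735 and 0.18 CPM. The groups did not overlap, and MUC16 was seen in every TH-588 library. The pooled TH-588 level was 0.119 CPM, 10.2 times the 0.0116 CPM that 3 counts over the pooled DMSO libraries would give. The exact 95% lower limit of the ratio was 7.74, which covers counting error only. It had too few counts for a test in the main fit. In the fit without a filter, the only one in which MUC16 was tested, its adjusted p from edgeR was 0.00235. That fit could give far smaller values than the main fit. Its edgeR adjusted p for EPCAM was 8.74e-39 against 8.23e-07, though that for FOLR1 was 0.0253 against 0.0312. The MUC16 value is thus not set beside those of the main fit.

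Such a gain from 0 was not particular to MUC16. Among 36002 genes with no count in the DMSO libraries, 256 had counts in all 3 TH-588 libraries. Of the same 36002 genes, 34 had at least 26 counts over the TH-588 libraries, the count of MUC16. In the opposite direction, 34029 genes had no count in the TH-588 libraries, and 33 of them had counts in all 3 DMSO libraries. Of the same 34029 genes, 2 had at least 26 counts over the DMSO libraries. Even with TH-588 the level of MUC16 was 0.00278 ± 0.00123 CPM per kilobase (SD, n = 3), far under that of EPCAM.

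FOLR1 (ENSG00000110195, chr11:72189558-72196323, plus strand) encodes a membrane-anchored receptor that takes up folate by endocytosis. Its counts were 13, 3 and 14 with DMSO and 11, 43 and 22 with TH-588, which is 0.158, 0.0364 and 0.149 CPM and 0.411, 0.395 and 0.264 CPM. All 3 TH-588 libraries were above all 3 DMSO libraries, and DMSO replicate B was the lowest. The level rose from 0.115 ± 0.068 to 0.357 ± 0.0809 CPM (SD, n = 3 each), or a log2 difference of 1.59 (SE 0.55, edgeR adjusted p = 0.0312). Since FOLR1 entered the test only through its counts after TH-588, the call that this p gives is not read as support. This call was not stable, since it was lost without DMSO replicate B (adjusted p = 0.0804) or without TH-588 replicate A, B or C (0.0723, 0.122 and 0.0503), all by the same edgeR test, with the log2 difference between 1.18 and 1.89. At 106 counts in all, FOLR1 lay among the 2674 tested genes with a mean log2 CPM under -1, of which 15.5% were called higher and 3.29% lower, with a median log2 difference of 0.37.

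The other genes of folate uptake and use went mostly the other way. Without FOLR1, 12 genes of that list were tested, and 1 was higher and 11 lower, with a median log2 difference of -0.60. Over all genes tested, 24.2% were higher and 25.3% lower, with a median of 0.02. All 12 averaged 2 or more on the log2 CPM scale. Of all genes from 2 to 5 on that scale, 29.0% were higher and 28.2% lower. Genes at 5 or more leaned downward, with 19.3% higher, 45.4% lower and a median of -0.18. SLC19A1, the reduced folate carrier, fell from 13.8 ± 1.61 to 6.35 ± 1.11 CPM (SD, n = 3 each), or a log2 difference of -1.10 (SE 0.14, edgeR adjusted p = 5.27e-05). GGH, which trims the glutamate tail of folates, fell with a log2 difference of -1.04. FOLR2 and FOLR3, the related folate receptors, had 13 and 0 counts over all libraries.

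EPCAM (ENSG00000119888, chr2:47345158-47387601, plus strand) encodes an epithelial adhesion and signaling protein, and it changed most of the 5 markers tested. Its counts were 45, 41 and 83 with DMSO and 116, 540 and 410 with TH-588, which is 0.548, 0.497 and 0.886 CPM and 4.33, 4.96 and 4.91 CPM. The lowest TH-588 library lay well above the highest DMSO library, DMSO replicate C. The level rose from 0.644 ± 0.212 to 4.74 ± 0.35 CPM (SD, n = 3 each), which is a fitted 7.33-fold rise and a log2 difference of 2.87 (SE 0.22, edgeR adjusted p = 8.23e-07). Without TH-588 replicate A the log2 difference was 2.94, and over all alternatives it stayed between 2.72 and 3.20 and past the threshold. Since RNA was taken from whole cultures, more cells with EPCAM and more EPCAM per cell cannot be told apart, and the same holds for every other change given here.

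Set against all genes tested, 152 of 15844 (0.959%) rose more than EPCAM. Low-abundance genes leaned upward as a class: of the 3408 genes with a mean log2 CPM from -1 to 2, where EPCAM lay, 30.9% were called higher and 10.5% lower, with a median log2 difference of 0.26. In that range 51 genes (1.5%) rose more than EPCAM. No exon of another gene overlaps EPCAM, FOLR1 or MUC16 in the table.

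**Figure D2:**
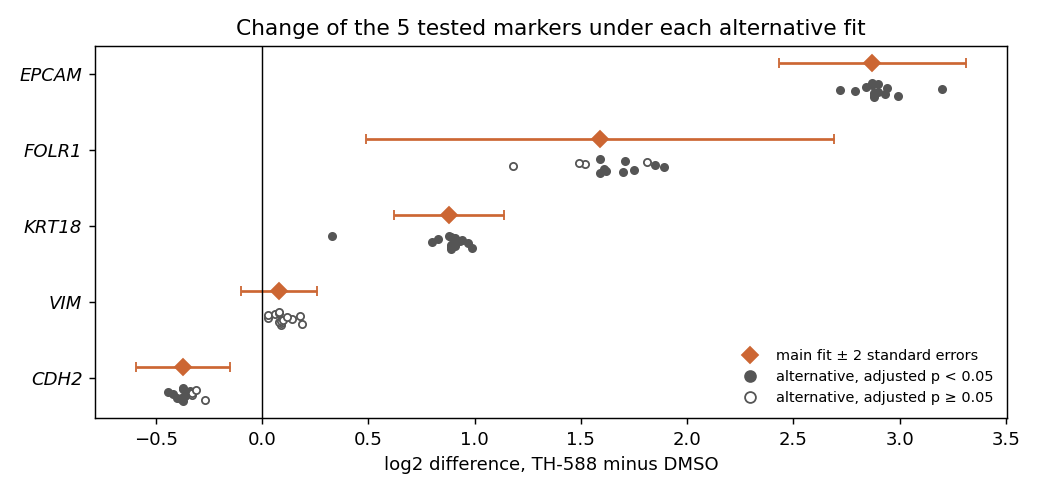
Log2 difference of the 5 tested markers (TH-588 minus DMSO) in the main edgeR fit, as diamonds with 2 standard errors either side, and under each alternative fit, as gray points that are open where the adjusted p was 0.05 or more. EPCAM stayed between 2.72 and 3.20, FOLR1 and CDH2 crossed the threshold in some fits, VIM passed in none, and the isolated KRT18 point at 0.33 is the fit with pseudogene counts added.

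The classical cadherins are calcium-dependent adhesion proteins that hold like cells together through catenins. CDH1 (ENSG00000039068, chr16:68737225-68835548, plus strand), the epithelial member, had 1 count in each DMSO library and 0, 0 and 2 counts in TH-588 replicates A, B and C. The groups overlapped, and the pooled ratio of 2 counts to 3 was 0.786 (95% exact interval 0.0657 to 6.87, counting error only). No change in CDH1 was detectable at this depth, and a large change in either direction could have been missed. With under 10 counts of CDH1 in every library, the ratio of CDH2 to CDH1 was not tested.

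CDH2 (ENSG00000170558, chr18:27950966-28177446, minus strand), the mesenchymal and neural member, was clearly expressed. Its counts were 1214, 1110 and 1391 with DMSO and 331, 1150 and 872 with TH-588, which is 14.8, 13.5 and 14.9 CPM and 12.4, 10.6 and 10.4 CPM. All 3 TH-588 libraries were below all 3 DMSO libraries, with TH-588 replicate A nearest to them. The level fell from 14.4 ± 0.787 to 11.1 ± 1.07 CPM (SD, n = 3 each), to 0.771 of the DMSO level, or a log2 difference of -0.37 (SE 0.11, edgeR adjusted p = 0.0146). The call depended on the scaling, since with library size only the log2 difference was -0.27 and the adjusted p 0.0785, a scaling that moved the median of all genes from 0.019 to 0.126. It was also lost without DMSO replicate A (adjusted p = 0.054), DMSO replicate C (0.0626) or TH-588 replicate C (0.069), with the log2 difference between -0.44 and -0.31.

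Among 17 cadherin, catenin and nectin genes 13 were tested, and 5 were higher and 3 lower, with a median log2 difference of 0.20 that was -0.06 when at least 10 counts were required in every library. The shares over all genes tested were 24.2% higher and 25.3% lower, with a median of 0.02. JUP, plakoglobin, which links cadherins to the cytoskeleton in junctions and desmosomes, rose from 6.54 ± 1.31 to 14.8 ± 1.37 CPM (SD, n = 3 each), or a log2 difference of 1.18 (SE 0.15, edgeR adjusted p = 3.72e-05). CTNND1 (p120-catenin) and VCL (vinculin) rose by smaller amounts, with log2 differences of 0.38 and 0.39. The nectins NECTIN1 and NECTIN3, which are immunoglobulin-like adhesion proteins, fell with log2 differences of -0.98 and -0.44, while NECTIN2 was called higher at 0.34 with overlapping groups. CTNNB1, beta-catenin, stood at 781 ± 42.1 and 719 ± 54.2 CPM (SD, n = 3 each) and did not pass the test. CDH3, P-cadherin, rose from 0.157 ± 0.0627 to 0.731 ± 0.264 CPM (SD, n = 3 each), or a log2 difference of 2.16 (edgeR adjusted p = 0.00197). Like FOLR1, CDH3 entered the test only through its counts after TH-588, so its call is not read as support. CDH3, CTNNB1 and NECTIN2 were named after their values were seen.

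VIM (ENSG00000026025, chr10:17228259-17237593, plus strand) encodes the intermediate filament protein of mesenchymal cells. It had 307726, 275553 and 344004 counts with DMSO and 89109, 440394 and 334718 counts with TH-588, which is 3745, 3339 and 3673 CPM and 3329, 4048 and 4011 CPM. The groups overlapped, because TH-588 replicate A was the lowest of the 6 libraries and TH-588 replicates B and C were the highest. The level was 3586 ± 216 CPM with DMSO and 3796 ± 405 CPM with TH-588 (SD, n = 3 each), or a log2 difference of 0.08 (SE 0.09, edgeR adjusted p = 0.501). The interval of 2 standard errors ran from 0.929-fold to 1.21-fold, so the change that this design leaves possible is small beside that of EPCAM. Without TH-588 replicate A the log2 difference was 0.18 and the adjusted p 0.0715. Exons of 2 antisense genes overlap 24.4% of the VIM bases, and VIM-AS1 itself had 6 counts in DMSO replicate A and none elsewhere.

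KRT8 and KRT18 encode the type II and type I keratin that pair in simple epithelia, and their genes lie side by side on opposite strands of chromosome 12. Of 55 keratin genes in the table, rows named as pseudogenes left out, 38 had no count in any library, and KRT18 and KRT10 were the only 2 with enough counts to be tested. KRT18 (ENSG00000111057, chr12:52948871-52952901, plus strand) had 317, 259 and 344 counts with DMSO and 164, 761 and 543 counts with TH-588, which is 3.86, 3.14 and 3.67 CPM and 6.13, 7.0 and 6.51 CPM. All 3 TH-588 libraries were above all 3 DMSO libraries, and each group was tight. The level rose from 3.56 ± 0.373 to 6.54 ± 0.435 CPM (SD, n = 3 each), which is a fitted 1.85-fold rise and a log2 difference of 0.88 (SE 0.13, edgeR adjusted p = 0.00017). Without TH-588 replicate A it was 0.94. KRT10, a keratin of the epidermis, stood at 10.0 ± 1.43 and 8.38 ± 1.19 CPM (SD, n = 3 each), with a log2 difference of -0.25 (adjusted p = 0.169).

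KRT8 (ENSG00000170421, chr12:52897187-52949954, minus strand) had 0, 7 and 0 counts with DMSO and 7, 13 and 8 counts with TH-588. Every TH-588 library was above every DMSO library in CPM, at 0.262, 0.12 and 0.0959 against 0, 0.0848 and 0. DMSO replicate B alone held all DMSO counts. The pooled ratio of 28 counts to 7 was 4.72 (95% exact interval 2.01 to 12.8, counting error only), while its adjusted p from edgeR was 0.104 without a filter on low counts. Over the 6 alternative fits that held KRT8 the adjusted p ran from 0.00781, without DMSO replicate B, to 0.207, and this was the only one of them past the threshold. The planned test of the ratio of KRT8 to KRT18 was not made, because KRT8 was at 0 in 2 libraries. In the 4 libraries with counts KRT18 was 50.1 to 145 times as high as KRT8 per length. The exons of the 2 genes overlap on opposite strands over 525 bases, which is 7.63% of KRT8 and 16.3% of KRT18, and how reads in such overlaps were counted is not stated.

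Both keratins have many processed copies in the genome, and the table holds counts for them. Rows named as KRT8 pseudogenes numbered 51, of which 24 had counts, 4788 in all against 35 for KRT8 itself, so that they took 97.5% to 100% of the joint counts in each library. The rows KRT8P33, KRT8P46 and KRT8P39 held 72.5% of these. Summed over rows, the KRT8 pseudogenes stood at 11.0 ± 0.91 CPM with DMSO and 9.21 ± 1.0 CPM with TH-588 (SD, n = 3 each), and with their counts added KRT8 had a log2 difference of -0.24 (edgeR adjusted p = 0.13), opposite in sign to that of KRT8 alone. For KRT18 there were 67 such rows, 36 of them with counts, and they held 3448 counts against 2388 for KRT18. Together the KRT18 pseudogenes stood at 7.32 ± 1.15 CPM with DMSO and 7.05 ± 0.595 CPM with TH-588 (SD, n = 3 each), and the groups overlapped. Their share of the joint counts was 66.5%, 72.5% and 62.2% with DMSO and 51.6%, 49.7% and 54.2% with TH-588. With the pseudogene counts added to KRT18, the log2 difference shrank to 0.33 (edgeR adjusted p = 0.031, the highest of a range from 7.76e-08 over its alternatives). Of the rows, 25 for KRT8 and 23 for KRT18 lie inside other genes. KRT8P33, KRT8P46 and KRT8P39 lie inside CEP120, MANBA and NUP107 on the same strand, and these genes had 13737, 18161 and 72655 counts. Of the fullest KRT18 rows, KRT18P60 lies inside MSRB3 on the opposite strand, KRT18P15 inside CMTM8 on the same strand and KRT18P24 in no other gene. Whether reads of the pseudogene rows came from the keratins or from the surrounding genes was not tested.

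**Figure D3:**
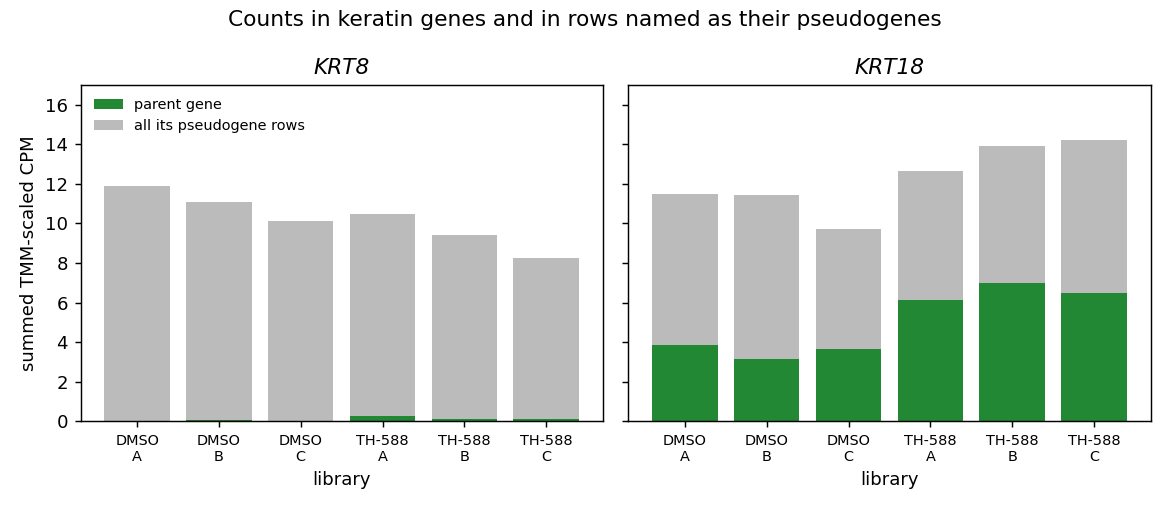
Summed TMM-scaled CPM of KRT8 (left) and KRT18 (right), in green, and of all rows named as their pseudogenes, in gray, stacked for each of the 6 libraries. For KRT8 nearly all of each bar is gray, while for KRT18 the green part rose from 3.14 to 3.86 CPM with DMSO to 6.13 to 7.0 CPM with TH-588 and the gray part stayed between 6.05 and 8.28 CPM.

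Stretches before a RefSeq start of VIM and of KRT8 are shown because these genes were the highest and the lowest per length of the 3 filament genes. The sequences are from RefSeq (GRCh38.p14), in which 6 of the 10 markers had an entry of 250 bases before to 50 bases after a gene start. Only bases outside exons of the counted gene are printed, 5′ to 3′ on the gene's strand. Capitals mark 6-base motifs found on either strand, CANNTG (the E-box core) and GGGCGG (the GC box), the latter chosen after the sequences were seen.
VIM, chr10:17227991-17228240, plus strand: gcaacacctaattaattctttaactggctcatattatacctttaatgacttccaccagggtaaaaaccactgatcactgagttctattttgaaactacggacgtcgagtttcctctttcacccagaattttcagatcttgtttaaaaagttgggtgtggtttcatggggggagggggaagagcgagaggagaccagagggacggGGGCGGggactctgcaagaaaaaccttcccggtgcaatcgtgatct
KRT8, chr12:52926470-52926719, minus strand: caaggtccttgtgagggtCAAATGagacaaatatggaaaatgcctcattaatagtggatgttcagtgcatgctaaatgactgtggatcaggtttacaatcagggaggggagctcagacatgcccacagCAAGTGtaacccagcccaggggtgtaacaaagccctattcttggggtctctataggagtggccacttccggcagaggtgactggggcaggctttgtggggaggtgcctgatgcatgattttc
The VIM stretch holds 1 GC box and no E-box core, and the KRT8 stretch holds 2 E-box cores and no GC box. The KRT8 stretch lies within the span of the counted gene (chr12:52897187-52949954), which reaches further upstream. It stands before 1 annotated start, and whether the KRT8 counts came from transcripts of that start was not tested. Both motifs are common: CANNTG was in 68.7% of 35116 RefSeq windows and in 8 of the 11 windows of these markers, and GGGCGG in 45.0% and in 4 of 11. CAGGTG, a stricter form that CANNTG includes, was in 20.6% of all windows and in 2 of 11, both of MUC16, and in neither printed stretch. A match in these letters is no evidence of binding.

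The wider epithelial list gave more rises than falls. Of 34 epithelial genes 17 were tested, and 8 were higher, 0 lower and 9 not called, with a median log2 difference of 0.72. Without the markers themselves, 6 of 15 tested genes were higher and 0 lower, with a median of 0.53, beside 24.2% higher, 25.3% lower and a median of 0.02 over all genes. Of these 15 genes 11 had a mean log2 CPM under 2, where genes in general leaned upward: medians were 0.26 for genes from -1 to 2 (30.9% higher, 10.5% lower) and 0.37 for genes under -1 (15.5% higher, 3.29% lower). TJP3, a tight junction scaffold protein, rose from 1.3 ± 0.409 to 7.76 ± 1.61 CPM (SD, n = 3 each), or a log2 difference of 2.60 (SE 0.23, edgeR adjusted p = 2.4e-06). ERBB3, a receptor of the EGFR family, rose from 25.4 ± 1.61 to 35.6 ± 3.16 CPM (SD, n = 3 each), or a log2 difference of 0.49. MUC1, ESRP2, PKP3 and CDH3 were the other risers, with log2 differences of 0.53, 0.72, 1.08 and 2.16. Of these, CDH3 entered the test only through its counts after TH-588. The epithelial gene of highest level, OCLN (occludin of tight junctions), stood at 106 ± 3.61 and 101 ± 8.17 CPM (SD, n = 3 each) and did not pass the test.

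Several epithelial genes had few or no counts with both treatments, as CDH1 did. OVOL2 had no count in any library, and KRT7, KRT19, ESRP1 and GRHL2 had between 1 and 4 counts over all 6. These 5 genes, named after their values were seen, include keratins of simple epithelia (KRT7 and KRT19), a splicing regulator (ESRP1) and transcription factors that maintain epithelia (OVOL2 and GRHL2). Other untested genes of the list, also named after their values were seen, were higher with TH-588 without overlap of the groups, besides KRT8. CLDN4 went from 0.0178 to 0.15, ST14 from 0 to 0.0884 and CRB3 from 0.0284 to 0.167 mean CPM, near the detection floor. CLDN3, KRT19 and CDH1 had lower means with TH-588, with overlapping groups.

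**Figure D4:**
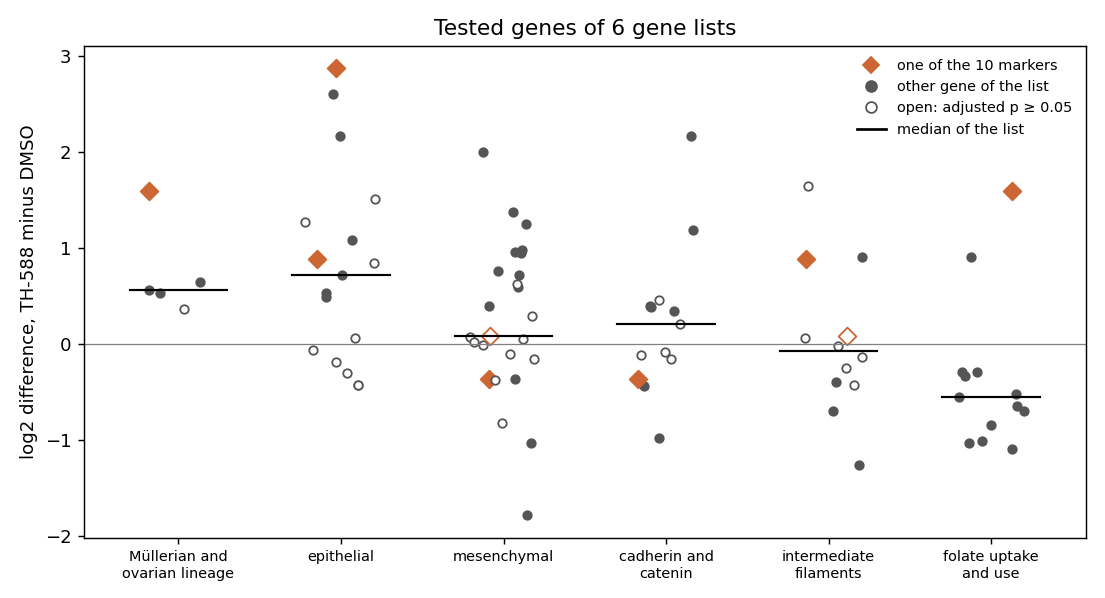
Log2 difference (TH-588 minus DMSO) of each tested gene in 6 gene lists. Diamonds are the markers, circles are the other genes, open symbols have an adjusted p of 0.05 or more and the horizontal bars are list medians, from -0.56 for folate genes, FOLR1 included, to 0.72 for epithelial genes. A gene on 2 lists is drawn in both.

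The mesenchymal list moved in both directions, and it too gave more rises than falls. Of 28 genes 25 were tested, and 10 were higher, 4 lower and 11 not called, with a median log2 difference of 0.08. Without the markers themselves, 23 genes were tested, 9 of them with a mean log2 CPM under 2. Of the 23, 10 were higher and 3 lower, with a median of 0.29. Beside this, 24.2% of all genes tested were higher and 25.3% lower, with a median of 0.02. Among genes averaging 2 or more on the log2 CPM scale, the risers with the largest changes were ACTA2 (smooth muscle actin), S100A4 (a calcium-binding protein of motile cells) and AXL (a receptor tyrosine kinase), with log2 differences of 2.00, 1.25 and 0.98. The less abundant collagen chain gene COL1A2, named after its values were seen, rose with one of 1.37. Of the ACTA2 bases, 30.1% are shared with exons of another gene. TAGLN, an actin-binding protein of smooth muscle, fell from 47.7 ± 3.44 to 13.8 ± 0.112 CPM (SD, n = 3 each), or a log2 difference of -1.79 (SE 0.09, edgeR adjusted p = 3.72e-08). THY1, a surface glycoprotein of fibroblasts, and TCF4, a helix-loop-helix factor, fell with log2 differences of -1.04 and -0.37, and CDH2 was the other gene that fell.

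ZEB1, a repressor of CDH1, was well expressed at 124 ± 6.46 CPM with DMSO and 115 ± 11.4 CPM with TH-588 (SD, n = 3 each), with a log2 difference of -0.11 (edgeR adjusted p = 0.347). SNAI1 and SNAI2, repressors of the same promoter, stood between 1.23 and 1.56 CPM in both groups and did not pass the test, while TWIST1 rose from 19.1 ± 2.15 to 28.8 ± 2.79 CPM (SD, n = 3 each). These 4 factors were named after their values were seen. COL3A1, a fibrillar collagen chain and after VIM the most abundant gene of the list by CPM, stood at 1733 ± 165 and 2279 ± 378 CPM (SD, n = 3 each) with overlapping groups, and was called higher (adjusted p = 0.0154).

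Among 21 intermediate filament genes and their linkers 12 were tested, and KRT18 was 1 of 2 that were higher, against 3 that were lower, with a median log2 difference of -0.08 that ran from -0.17 to 0.14 over the alternatives and was 0.03 with library size only. Of all genes tested, 24.2% were higher and 25.3% lower, with a median of 0.02. SYNM (synemin, a partner of vimentin) fell from 43.8 ± 1.07 to 18.3 ± 0.881 CPM (SD, n = 3 each), or a log2 difference of -1.26 (SE 0.08, edgeR adjusted p = 2.69e-07). Of its bases, 27.7% are shared with exons of another gene. NES (nestin), another partner of vimentin, fell with a log2 difference of -0.70, as did PLEC (plectin), which ties filaments to junctions, with one of -0.40 and overlapping groups.

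The genes most like KRT18 across the 6 libraries were sought among 9761 tested genes averaging at least 2 on the log2 CPM scale, by the root mean square difference of log2 CPM after each gene was centered on its own mean. They were RETREG3 (a receptor for autophagy of the endoplasmic reticulum), PTK7 (a Wnt pathway pseudokinase), MED25 (a Mediator subunit), HSPB1 (a small heat shock protein) and FLNC (an actin crosslinker), with differences of 0.0418, 0.0468, 0.056, 0.0583 and 0.0602. In all, 56 genes lay within 0.1, and this likeness over 6 libraries is a description without a test.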

How the data were processed

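RNA from A2780 cells given DMSO or TH-588 was sequenced by the authors as polyA RNA with a TruSeq RNA v2 kit, mapped by TopHat (GRCh38) and summarized by gene in featureCounts 1.4.6. The authors deposited these counts unnormalized. UCSC gene models are named in the methods, whereas the identifiers of the table are from Ensembl. The handling of strand and of reads that match several genes is not given in the sources used here.

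Counts of 6 libraries, 3 per group, were compared with edgeR 4.0.16 in R 4.3.3 (TMM, default filter on low counts, quasi-likelihood test, no covariate, Benjamini-Hochberg adjusted p under 0.05), and the markers were read from that fit of 15844 genes. Standard errors were taken as the log2 difference over the root of the F statistic. Intervals of pooled counts are 95% exact binomial intervals. These and the floors of 3 counts cover counting error only. Where cultures were not independent, p-values measure only the spread between libraries.

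The markers and the 11 gene lists were chosen with earlier results of these data known. Named genes were the 10 markers and, in each list, the 3 largest rises and falls among called genes that averaged at least 2 on the log2 CPM scale and whose groups did not overlap, besides the gene of highest level in lists of other cell types, and the 5 genes most like the called marker of largest change at that level. Alternatives were scaling by library size only or by DESeq2 size factors, the tests of DESeq2 1.42.0 and limma-voom (limma 3.58.1), filters of none and of at least 10 counts in every library, omission of single libraries, a replicate block, an adjusted p under 0.01, removal of the 10 most abundant genes and, for KRT18, added pseudogene counts. The procedure was tested on simulated counts in which some genes changed by a log2 difference of 1. It recovered 99.1% of the changed genes that averaged at least 2 on the log2 CPM scale, but 38.6% of those under 2. Of its calls, 6.58% were false. A gene under 2 that was not called may thus have changed. Replicates differed by far more than sampling noise. Some genes of the lists are counted in them but not reported here.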

Additional observations from a re-analysis of the deposited data

How the results depend on the processing

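EPCAM and KRT18 stayed higher and past the threshold under all 15 and 16 alternatives, and VIM passed in none of its 15, with adjusted p-values from 0.0715 to 0.844 over the fits (edgeR, DESeq2 or limma-voom). FOLR1 passed in 9 of 14 and CDH2 in 10 of 15, without a change of sign. With library size only, 4248 genes were higher and 2786 lower over all genes (3839 and 4013 in the main comparison), CDH2 had a log2 difference of -0.27 and 0 markers were lower. At an adjusted p under 0.01, FOLR1 (1.59) and CDH2 (-0.37) no longer passed, which left 0 markers lower and 2 higher. With each library left out in turn, the number of markers lower ranged from 0 to 1 and that of markers higher from 2 to 3 (without DMSO replicate B, KRT8 was counted and FOLR1 was not), the log2 difference of FOLR1 from 1.18 to 1.89 and that of CDH2 from -0.44 to -0.31. Each of these fits held fewer libraries, and the cause was not tested. FOLR1 could not be tested with at least 10 counts required in every library. Replicates that share a letter did not deviate together (correlations of -0.07, -0.08 and 0), and with a replicate block the log2 differences were 2.90 for EPCAM, 0.89 for KRT18, 1.71 for FOLR1, -0.37 for CDH2 and 0.08 for VIM, no call of a marker changed, and 3492 genes were higher and 3703 lower. In the 11 lists, the number of genes higher moved in 25 of 165 recomputed values, the number lower in 0 and the median in 41, and the median of the cadherin, filament and immune lists changed sign in 1, 4 and 1 of the alternatives. Depth limits PAX8, WT1, MUC16, CDH1 and KRT8, whose counts were too few for the main test.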

Other observations

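Markers of other cell types were read in the same fit. Over all genes tested 24.2% were higher and 25.3% lower, with a median log2 difference of 0.02. A mean log2 CPM under 2 held for 2 of 4 germ cell, 2 of 3 granulosa and 4 of 5 neural genes tested. The same held for 3 of 3 immune and 2 of 3 endothelial genes. Genes in general leaned upward there, with 30.9% higher and 10.5% lower from -1 to 2, and 15.5% and 3.29% under -1. These lists hold too few tested genes to read a share against that background. Of 11 germ cell and pluripotency genes 4 were tested, and NANOG, a pluripotency factor that was named after its values were seen, was higher and 0 were lower (median log2 difference 0.10). The call of NANOG was lost without DMSO replicate A, DMSO replicate B or TH-588 replicate C. SALL4, a zinc finger factor of embryonic cells, had the highest level of that list at 214 ± 7.19 CPM with DMSO and 223 ± 11.4 CPM with TH-588 (SD, n = 3 each), with a log2 difference of 0.06 (edgeR adjusted p = 0.547). Of 11 granulosa and sex cord stroma genes 3 were tested, and 2 were higher and 0 lower (median 0.48). FOXL2, the transcription factor of granulosa cells, rose from 6.25 ± 0.88 to 8.7 ± 0.844 CPM (SD, n = 3 each), or a log2 difference of 0.48 (SE 0.14, edgeR adjusted p = 0.0122). Of 11 neural genes 5 were tested, and 2 were higher and 0 lower (median 0.78), among them SYP, synaptophysin of synaptic vesicles, which rose from 2.26 ± 0.147 to 8.08 ± 0.937 CPM (SD, n = 3 each).

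The immune list (10 genes, 3 tested, 1 higher and 0 lower, median 0.62, or -0.36 with at least 10 counts in every library) summed to 0.937 to 1.76 CPM with DMSO and 1.58 to 1.89 CPM with TH-588. CD3E and HLA-DRA had no count in any library. The endothelial list (8 genes, 3 tested, 1 higher and 0 lower, median 0.47) summed to 5.76 to 6.36 CPM and 7.25 to 8.41 CPM, most of it ERG at 5.53 ± 0.154 and 7.06 ± 0.751 CPM (SD, n = 3 each), a rise (log2 difference 0.35, edgeR adjusted p = 0.0373) that was lost without any 1 of DMSO replicates A, B and C or TH-588 replicates A and B, without a filter and with a replicate block (adjusted p = 0.0756, in a range from 0.0165 to 0.127 over the alternatives), while PECAM1 and CDH5 had 3 and 5 counts over all libraries.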
